A study of Gallus gallus with 24 samples.

Results

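The transcriptomes of BS-treated and BV-treated PBMCs were compared in 6 BS libraries and 6 BV libraries, 12 of the 24 libraries of the series, with the libraries of the same chicken paired by its biological replicate number. BS is a probiotic strain of Bacillus subtilis and BV a probiotic strain of Bacillus velezensis. PBMCs (peripheral blood mononuclear cells) of Cobb500 broiler chickens of 4 to 6 weeks were cultured for 24 h with 3 bacteria per PBMC of either strain, or without bacteria as a negative control, which gave 6 control libraries of the same chickens. Duplicate cultures of each chicken and condition were pooled before sequencing, so that each library stands for 1 chicken. A further 6 libraries of conA-treated cells were not analysed here. The labels name the 6 biological replicates, and the cells of all groups had been isolated from blood and kept for 1 night before the 24 h culture.

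Blood cells of birds sense Bacillus through receptors of the innate immune system. Lipoproteins of the cell wall are bound by receptors of the TLR2 family, flagellin by TLR5, bacterial DNA by TLR21 and fragments of peptidoglycan by NOD1. These receptors act through the transcription factor NF-kB, which induces cytokines such as IL1B and chemokines such as IL8, and both strains belong to closely related species of one genus. The question of the comparison was which genes and gene groups of the PBMCs differed between the strains, and how large a difference the 6 pairs could have shown.

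Between 12170873 and 30040702 reads were counted on genes in the BS libraries (median 22734016) and between 21778481 and 27815065 in the BV libraries (median 24548928). The BS library of chicken 5 had the fewest reads and 14539 genes detected, against at least 16111 in the other BS libraries. The defining T cell gene CD3E had 17670 to 25834 normalized counts after BS and 17508 to 25277 after BV, and the monocyte receptor CSF1R had 17.4 to 138 after BS and 27.3 to 151 after BV. ITGA2B, the integrin of thrombocytes, ranged from 299 to 26831 after BS and from 312 to 23664 after BV, so that this gene differed widely between chickens in either group. In such bulk samples, fewer cells of a type and less RNA per cell cannot be told apart.

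No gene differed between BS-treated and BV-treated PBMCs after adjustment for the number of genes. In edgeR's quasi-likelihood test with the chicken as a block, 0 of 19673 genes (0%) had an adjusted p under 0.05, and the smallest adjusted p was 0.958. At an unadjusted p under 0.05 there were 816 genes (4.15% of those tested), of which 407 (2.07%) were higher after BS and 409 (2.08%) lower. In a fit scaled by library size alone, 797 genes had such a p, 540 higher and 257 lower. With an absolute log2 FC above 0.5 in addition, the rule by which the study chose genes for pathway analysis, 271 genes (1.38%) remained, 161 (0.818%) higher and 110 (0.559%) lower after BS. Without chicken 2 the number at an unadjusted p under 0.05 was 1478, and without chicken 5 it was 685, with no gene at an adjusted p under 0.05 in either fit. DESeq2 called 12 genes when the control libraries entered the same fit, an alternative chosen after seeing the data, and each of these had 0 reads in all 6 libraries of one strain and at most 11 reads over the 6 of the other.

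Against the control the same 6 chickens gave calls with either strain. In a fit of the 18 libraries, 210 genes (1.07%) differed between BS and control and 185 (0.94%) between BV and control at an adjusted p under 0.05. These comparisons share the control libraries. The distance between libraries of a chicken, taken as the root mean square log2 difference over 12997 genes averaging at least 10 normalized counts, was 0.345 to 0.745 between BS and BV. It was 0.413 to 0.791 between BS and control and 0.361 to 0.566 between BV and control. In 4 of 6 chickens the strains were closer to each other than either was to the control. In chicken 4 the distance was 0.459 between BS and BV, against 0.453 between BS and control and 0.431 between BV and control. In chicken 5, whose BS library was the shallow one, the distance between the strains was 0.745, against 0.486 between BV and control.

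The precision of each log2 FC was given by its 95% interval, whose half-width is smaller than the difference needed to pass adjustment. The fit borrows variance between genes, so that for variable genes the interval can be narrower than the chickens alone would give. For genes with a mean of 10 to 30 normalized counts the median half-width of this interval was 0.74 on the log2 scale, a 1.67-fold difference. It was 1.35-fold at 30 to 100 counts, 1.20-fold at 100 to 300, 1.12-fold at 300 to 1000, 1.09-fold at 1000 to 3000 and 1.07-fold above. Of the 12997 genes averaging at least 10 counts, 10338 (79.5%) had an interval wholly within a 1.5-fold difference in either direction and 12103 (93.1%) within a 2-fold difference. No interval lay wholly outside a 2-fold difference. For the remaining 6676 genes, with means under 10 counts, the median half-width was 3.57 on the log2 scale. For most of them the intervals thus left differences of several-fold undecided. Where 1 strain had 0 reads the SE is not usable, as in the cytokine gene IL21 (SE 8838, edgeR unadjusted p = 0.031). The median half-width of these genes is therefore only a rough guide.

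A gene passing the adjusted threshold alone would have needed an unadjusted p of at most 2.54e-06. The fold difference at which the median gene reaches that p was 4.55 at 10 to 30 counts, 2.43 at 30 to 100, 1.70 at 100 to 300, 1.40 at 300 to 1000, 1.28 at 1000 to 3000 and 1.22 above. The measured differences were smaller: the median absolute log2 FC was 0.24 at 10 to 30 counts and 0.04 above 3000 counts. In 30 of the 12997 genes the estimate exceeded a 2-fold difference, and 29 of these had means of 10 to 30 counts.

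**Figure D1:**
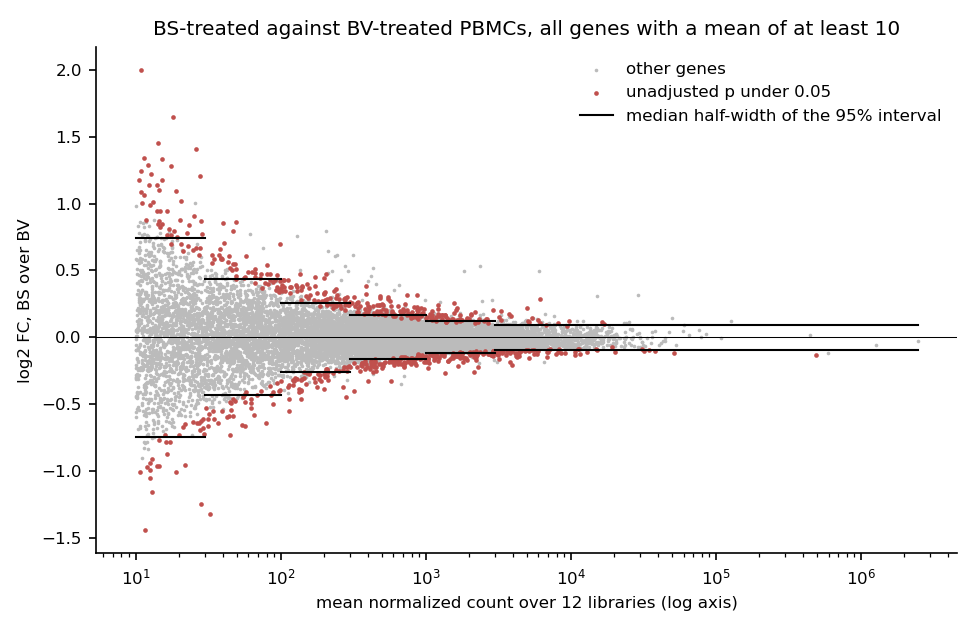
Log2 FC of BS over BV for each of the 12997 genes averaging at least 10 normalized counts, against that mean on a log axis, with genes at an unadjusted p under 0.05 in red and black lines at the median half-width of the 95% interval in 6 ranges of the mean. The cloud narrows as counts rise, with half-widths of 0.74 at 10 to 30 counts and 0.10 above 3000, and none of the red points passed adjustment.

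The genes with which the cells answered the bacteria were chosen by the mean of both strains against control, a contrast that does not use the difference between the strains. With an adjusted p under 0.05 plus a log2 FC beyond 1.5 in either direction, 39 genes (0.198%) passed, and 27 of them averaged at least 10 counts over the 18 libraries. Of these 27 genes 26 rose and 1, the fatty acid binding protein gene FABP4, fell. Between BS and BV the median log2 FC of the 27 was 0.10, against 0.00 over all genes tested, and their log2 FC ranged from -0.54 to 0.74. At an unadjusted p under 0.05 there was 1 gene of 27 (3.70%), CD72, against 5.13% of all genes averaging at least 10 counts. The response was larger after BS in 20 of the 27 genes. Of the 26 that rose, 19 had a log2 FC above 0, against 48.5% of all genes averaging at least 10 counts. These genes share chickens and are not independent. In chickens 1 and 6 only 6 and 8 of the 26 were higher after BS, against 15 to 21 in chickens 2 to 5. In 27 of 27 the 95% interval of BS against BV excluded a strain difference as large as the response itself, which had a median absolute log2 FC of 1.89. The genes were chosen for a response above 1.5, and the median half-width of their intervals was 0.61. This count was thus largely set by the choice of the genes and does not measure agreement of the strains. Without chicken 1 the responding genes numbered 16.

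AVD, which encodes the biotin-binding protein avidin, had the largest response by log2 FC of the mean of both strains among these 27 genes. Its normalized counts were 85.3 to 654 (median 295) after BS, 67.8 to 785 (median 146) after BV and 4.44 to 82.4 (median 11.2) in the control. The libraries of the strains overlapped widely, and AVD was higher after BS in chickens 2 to 5 and lower in chickens 1 and 6. Its log2 FC of BS over BV was 0.54 (SE 0.29, 95% interval -0.16 to 1.23, edgeR adjusted p = 0.958).

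CD72, a lectin-like receptor named after its B cell counterpart in mammals, had 24.1 to 161 normalized counts (median 101) after BS, 24.4 to 153 (median 53.1) after BV and 5.75 to 20.6 (median 9.50) in the control. Every library of either strain lay above every control library, whereas the libraries of BS and BV overlapped over nearly their whole range. The log2 FC of BS over BV was 0.54 (95% interval 0.11 to 0.96), higher after BS in 4 of 6 chickens, with an exact paired permutation p of 0.188 over 64 sign changes of the 6 pairs. The differences were largest in chickens 3 and 5, with log2 differences of 1.46 and 1.17.

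For cytokines and chemokines of the acute response, the libraries of the strains overlapped. IL1B, the inflammatory cytokine interleukin 1 beta, had 18.1 to 90.6 normalized counts (median 40.3) after BS, 6.57 to 151 (median 32.8) after BV and 0.822 to 21.0 in the control, with a log2 FC of BS over BV of 0.08 (95% interval -0.42 to 0.59). For IL1R2, the decoy receptor of IL1, the log2 FC was 0.14 (-0.19 to 0.46), and for IL8, a chemokine of heterophils, it was -0.07 (-0.40 to 0.25). IL8L1, its paralog, had a log2 FC of 0.23 with a wide interval of -0.53 to 1.00. CCL5, a chemokine of T cells and monocytes, had a log2 FC of 0.10 (-0.17 to 0.36). These intervals come from a fit that borrows variance from other genes. For IL8 the chicken differences in log2(normalized count + 1) had an SD of 0.59, beside a half-width of 0.32. The SD was 0.45 beside 0.26 for CCL5, 0.55 beside 0.33 for IL1R2, 0.72 beside 0.51 for IL1B and 1.13 beside 0.76 for IL8L1. The 6 chickens alone would thus give wider intervals, and strain differences somewhat beyond these ends are not excluded.

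Of 28 measured genes of dendritic cell maturation and antigen presentation, 1 was higher and 1 lower after BS at an unadjusted p under 0.05 (background 2.07% higher and 2.08% lower), and the median log2 FC of the 24 averaging at least 10 counts was 0.00. The peptide transporter gene TAP1 stood at 0.17 (95% interval 0.02 to 0.31), higher in 5 of 6 chickens, and BLEC2, a lectin-like gene, at -0.73 (-1.43 to -0.03), lower in 5 of 6. CD83, a surface marker of mature dendritic cells, had 38 to 257 normalized counts (median 83.4) after BS, 37.9 to 317 (median 102) after BV and 7.27 to 55.4 (median 23.3) in the control. Its log2 FC of BS over BV was -0.04 (95% interval -0.36 to 0.28), and that of LAMP3, a lysosomal protein of the same cells, was 0.08 (-0.29 to 0.45). ACOD1, the enzyme of itaconate synthesis in activated macrophages, had a log2 FC of 0.35 (-0.02 to 0.73), higher after BS in 4 of 6 chickens. ACTA2, which encodes smooth muscle actin, had a log2 FC of 0.08 (-0.32 to 0.47), and EPS8L3, an EPS8-like protein, one of 0.59 (-0.17 to 1.36).

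IL17C, a cytokine of the IL17 family, was the responding gene with the lowest log2 FC of BS over BV, at -0.54 (95% interval -1.58 to 0.50). It had 78 reads after BS, 116 after BV and 9 in the control. Chicken 1 gave 34 reads after BS and 64 after BV, while chicken 5 gave 14 reads after BS and 0 after BV. MLKL, the effector of necroptosis, had a log2 FC of -0.17 (-0.85 to 0.51). FABP4 had 20.6 to 122 normalized counts (median 81.6) after BS, 15.9 to 186 (median 81.8) after BV and 26.3 to 895 (median 161) in the control, and its log2 FC of BS over BV was -0.38 (-0.79 to 0.03).

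**Figure D2:**
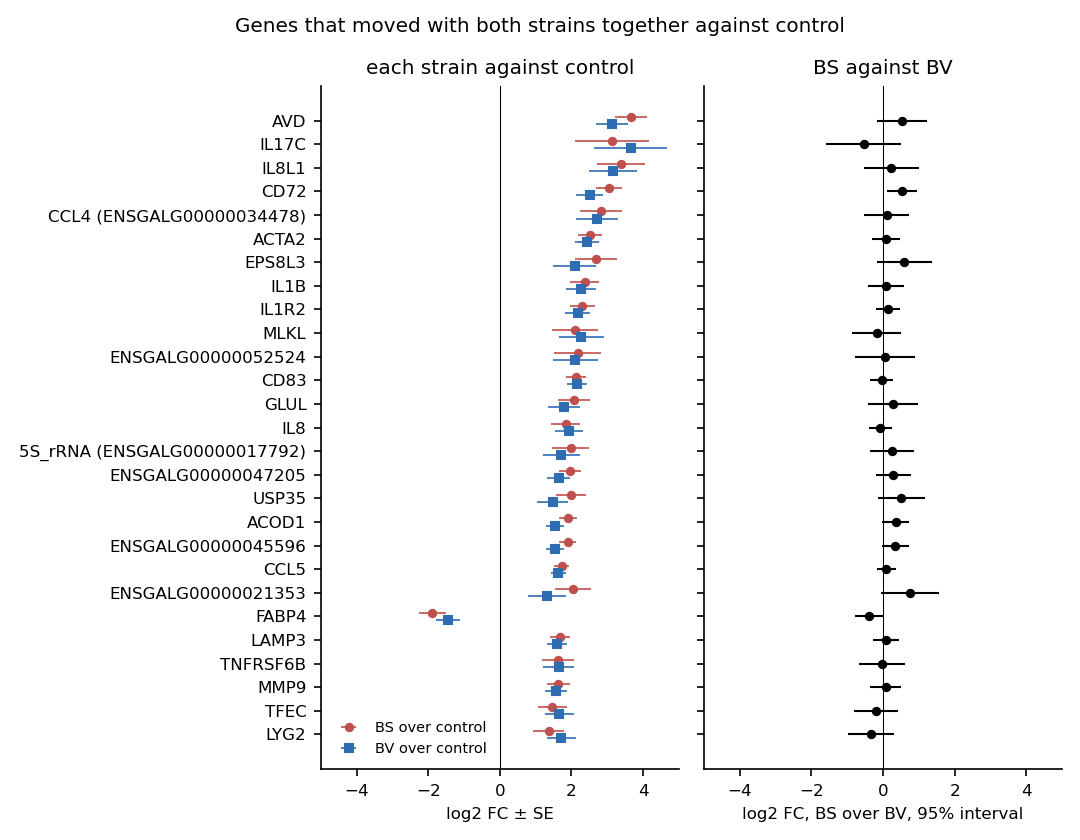
The 27 genes that moved with both strains together against control, ordered by size of response. The left panel gives the log2 FC with its SE of BS (circles) and BV (squares) over the shared control, and the right panel the log2 FC of BS over BV with its 95% interval on an axis of the same width; the intervals are narrower than the responses, and only that of CD72 (0.11 to 0.96) lies off 0.

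The direction of the strain difference in the responding genes went with the chicken. Among the 26 genes that rose, the number higher after BS was 6, 20, 15, 19, 21 and 8 in chickens 1 to 6, and the median difference in log2(normalized count + 1) was -0.30, 0.56, 0.37, 0.21, 0.74 and -0.41. Chickens 2 to 5 thus had medians above 0 and chickens 1 and 6 below, while the median over all 12997 genes lay between -0.01 and 0.01 in every chicken. Chicken 1 had the highest value in both groups of libraries in AVD (654 after BS and 785 after BV), IL1B (90.6 and 151), CD83 (257 and 317), CCL5 (536 and 589) and IL17C (35.4 and 80.1). Chicken 6 had the lowest value in both groups in CD72 (24.1 after BS and 24.4 after BV) and CCL5 (46.2 and 75.1), but the highest in both in ACTA2 (168 and 160). The wider set of 366 genes with an adjusted p under 0.05 for both strains together (2.81% of 13015) contained 29 genes (7.92%) at an unadjusted p under 0.05 between the strains, 10 higher and 19 lower after BS, beside 5.13% of all genes averaging at least 10 counts (2.45% higher and 2.68% lower). The median log2 FC of these 366 genes was -0.01, and in 339 of them the interval excluded a strain difference as large as the response. The 366 genes were chosen for their response, with a median absolute log2 FC of 0.39 beside a median half-width of 0.18. The count of 339 was thus also largely set by the choice and does not measure agreement of the strains.

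**Figure D3:**
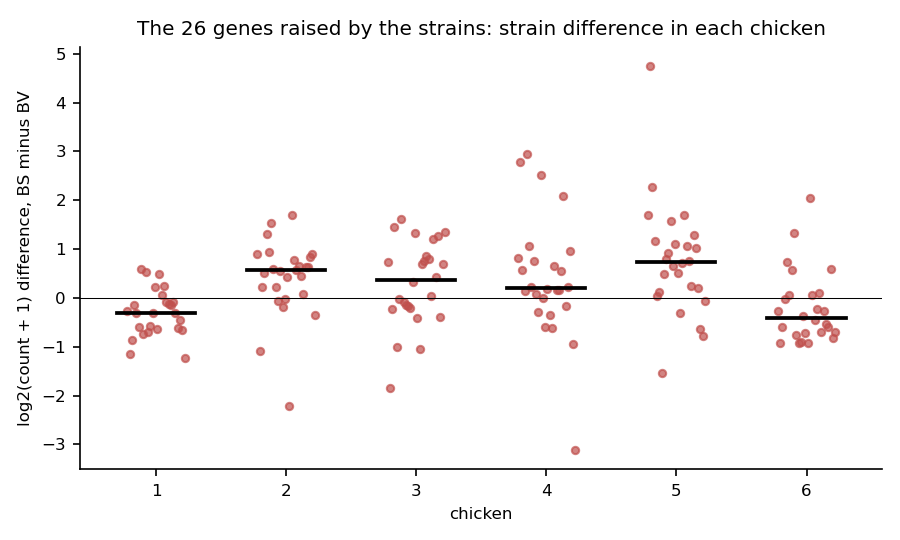
Difference in log2(normalized count + 1), BS minus BV, in each of the 6 chickens for the 26 genes raised by the strains; each point is a gene and the bar is the median. The medians are -0.30 in chicken 1 and -0.41 in chicken 6, and between 0.21 and 0.74 in chickens 2 to 5.

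Several cytokines of T cells and regulatory cells were read so rarely that single reads count. XCL1, a chemokine of activated T and NK cells, had 2, 3, 16, 13, 5 and 12 reads in the BS libraries of chickens 1 to 6, against 0, 3, 1, 4, 0 and 6 in the BV libraries and 21 over all control libraries. Its normalized count was higher after BS in 6 of 6 chickens, with 3.24 after BS and 2.59 after BV in the closest pair. The log2 FC of BS over BV was 1.96 (95% interval 0.43 to 3.48, edgeR adjusted p = 0.958), and the exact paired permutation p was 0.03125, the smallest that 6 pairs can give.

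IL10, the anti-inflammatory cytokine interleukin 10, had 2, 4, 7, 4, 3 and 3 reads after BS, 0, 5, 2, 0, 0 and 1 after BV and 8 over the control libraries. The normalized count was higher after BS in 6 of 6 chickens, although in chicken 2 it was 4.33 after BS and 4.32 after BV. The log2 FC was 1.66 with a 95% interval of -0.38 to 3.70, and the exact paired permutation p was 0.03125. Among the 57 measured entries for genes that the study names, 3 reached this exact p, XCL1 and IL10 higher and ENSGALG00000038584 lower after BS. This entry, which has no symbol in the files, had 14.0 to 35.4 normalized counts (median 24.5) after BS, 24.4 to 50.1 (median 36.3) after BV and 52.1 to 85.5 (median 69.2) in the control. Over all genes tested, 450 (2.29%) had the same direction in 6 of 6 chickens, which this p requires.

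Other cytokines had few reads as well. IL21, a helper T cell cytokine, had 0 reads in the 6 BS libraries, 16 reads in 3 of the 6 BV libraries and 1 read in the control. Set against a floor of 3 reads after BS, its pooled share of reads was 4.83-fold higher after BV. This ratio takes the BV reads as exact and leaves out the spread between chickens, so that it is not a lower bound. IL22, which acts on epithelia, had 0 reads after BS, 11 reads in 3 BV libraries and 2 in the control. By the same floor, with the same limit, its pooled share of reads was 3.32-fold higher after BV. The exact paired permutation p was 0.25 for either gene. This is the smallest p that 3 pairs with any reads can give, so that the test could not decide on a difference. IL6 had 9 reads after BS, 7 of them in chicken 5, against 1 after BV and 4 in the control. CSF3, the growth factor of granulocytes, had 79 reads after BS, found in 6 of 6 libraries, 59 after BV, found in 5 of 6, and 2 in the control, with a log2 FC of BS over BV of 0.54 (95% interval -0.45 to 1.53).

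Lists of genes of one function were described in turn. Each is given by how many of its measured members had an unadjusted p under 0.05. The background was 2.07% higher and 2.08% lower over all genes tested, and 2.45% and 2.68% over those averaging at least 10 counts. Of the latter, 48.5% had a log2 FC above 0, and in single chickens 47.7% to 51.4% were higher after BS. Of 27 inflammatory cytokines and chemokines 1 was higher (XCL1) and none lower, and the median log2 FC of the 15 averaging at least 10 counts was -0.01, or 0.00 when scaled by library size alone. Of 36 genes of the Toll-like receptor and NF-kB pathway none was higher and 1 lower, RIPK2, the kinase that NOD receptors signal through, with a log2 FC of -0.19 (95% interval -0.35 to -0.03), lower in 6 of 6 chickens. TNIP1, a brake on NF-kB and the most counted member, had 7443 to 16089 normalized counts (median 11755) after BS and 7287 to 15142 (median 10122) after BV, with a log2 FC of 0.12 (-0.10 to 0.34). Of 29 interferon response genes none was higher and 1 lower, IFIT5, at -0.33 (-0.56 to -0.10), while the transcription factor IRF1 stood at -0.04 (-0.13 to 0.05).

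The T cell genes were measured precisely. Of 29 members 2 were higher and 1 lower after BS, and 26 of the 27 averaging at least 10 counts had intervals within a 1.5-fold difference. Over all genes averaging at least 10 counts this share was 79.5%, and at 300 counts or more it was 99.1% to 99.7%. The count of 26 is thus not particular to T cell genes. CD4, the coreceptor of helper T cells, had 2241 to 5166 normalized counts (median 3392) after BS and 2448 to 5514 (median 3620) after BV, with a log2 FC of -0.05 (95% interval -0.15 to 0.04). The costimulatory receptor CD28 stood at -0.03 (-0.12 to 0.07), the IL2 receptor chain IL2RA at -0.02 (-0.16 to 0.12), and GATA3 and TBX21, transcription factors of type 2 and type 1 helper cells, at -0.05 (-0.14 to 0.05) and 0.04 (-0.17 to 0.25). CD5, an inhibitory receptor of T cells, was higher after BS in 5 of 6 chickens with a log2 FC of 0.14 (0.03 to 0.26). The inhibitory receptors CTLA4 and LAG3 pointed in opposite directions, CTLA4 with -0.23 (-0.44 to -0.02) and LAG3, from 94 reads after BS and 47 after BV, with 1.09 (0.22 to 1.95). Chicken 4 alone gave 43 of the LAG3 reads after BS and 9 after BV. The exact paired permutation p for LAG3 was 0.125.

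Lists that mark the cell types of blood were set beside these. Of 16 measured thrombocyte genes 1 was higher after BS, the integrin chain ITGB3, with 118 to 11398 normalized counts (median 658) after BS, 99.5 to 10722 (median 525) after BV and a log2 FC of 0.20 (95% interval 0.06 to 0.34), higher in 5 of 6 chickens. ITGA2B, its partner in the fibrinogen receptor, stood at 0.17 (-0.0048 to 0.35). Of all genes averaging at least 10 counts, 48.5% had a log2 FC above 0. Among the 15 thrombocyte genes at that level it was 12, with a list median of 0.09. The chicken medians lay above 0 in 6 of 6 chickens, from 0.02 in chicken 2 to 0.27 in chicken 5, with 0 to 7 of the 15 lower. The median was -0.02 for the B cell list, -0.06 for the monocyte and macrophage list, 0.03 for the erythrocyte list and 0.11 for the 5 cytotoxic granule genes measured well enough. These lists held between 0 and 2 members at an unadjusted p under 0.05. The part of cell composition in the strain differences was not tested.

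Genes of antimicrobial proteins held 3 of 21 measured members at an unadjusted p under 0.05, all lower after BS. The median log2 FC of the 10 averaging at least 10 counts was -0.32, and 2 of these 10 were higher after BS. AVD, among the most counted members, had the highest log2 FC of the 10, at 0.54 (95% interval -0.16 to 1.23). The defensin gene AvBD1 stood at 0.02 (-0.46 to 0.50), higher after BS in 3 of 6 chickens. CATHL2, a cathelicidin peptide of heterophil granules, had 6.33 to 33.3 normalized counts (median 14.1) after BS, 2.50 to 103 (median 32.5) after BV and 5.01 to 43.3 in the control. It was lower after BS in 4 of 6 chickens and, in chicken 1, was 16.7 after BS and 2.50 after BV. The log2 FC was -1.25 (95% interval -2.01 to -0.49) and the exact paired permutation p 0.188.

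S100A12, a calcium-binding alarmin of myeloid cells, had 110 to 380 normalized counts (median 234) after BS, 93.8 to 710 (median 305) after BV and 27.5 to 247 (median 129) in the control. Its log2 FC of BS over BV was -0.45 (95% interval -0.72 to -0.18), lower after BS in 4 of 6 chickens, and against control it was 0.98 for BS and 1.43 for BV. TF, the iron-binding ovotransferrin, had a log2 FC of -0.27, lower in 4 of 6 chickens. Of the 12 measured heterophil genes none had an unadjusted p under 0.05, and the median log2 FC of the 9 averaging at least 10 counts was 0.02. The part of heterophils in the antimicrobial genes was not tested further.

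Heat shock proteins were the list with the largest share at an unadjusted p under 0.05, 5 of 21 members (23.8%), all lower after BS. Over all genes averaging at least 10 counts this share was 5.13%, with 2.68% lower. The median log2 FC of the 20 members at that level was -0.05, and 16 of them were lower. Of all genes at that level, 48.5% had a log2 FC above 0, against 4 of these 20. The list median lay below 0 in 6 of 6 chickens, from -0.11 in chicken 4 to -0.007 in chicken 5. In chickens 1 to 6 the number lower was 11, 11, 14, 16, 11 and 17 of 20. HSPA8, the constitutive HSP70 chaperone, had 2366 to 3673 normalized counts (median 3071) after BS, 2663 to 4258 (median 3459) after BV and 3223 to 5076 (median 4117) in the control. The libraries overlapped, yet within every chicken the BS value was below the BV value. The log2 FC was -0.16 (95% interval -0.26 to -0.06, edgeR adjusted p = 0.958, exact paired permutation p = 0.03125). This exact p follows from the same direction in 6 of 6 chickens and adds nothing to it. Over all genes tested, 450 (2.29%) had the same direction in 6 of 6 chickens.

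HSP90AA1, the inducible HSP90, was also lower after BS in 6 of 6 chickens, with 1315 to 2821 normalized counts (median 2007) after BS, 1643 to 3560 (median 2110) after BV and 2053 to 5387 (median 3573) in the control. Its log2 FC was -0.17 (-0.28 to -0.06). The other 3 were HSPD1, the mitochondrial chaperonin, at -0.14, the cochaperone HSPH1 at -0.27 and the small heat shock protein HSPB9 at -0.40. HSPA4, an HSP110 member with counts like those of HSPA8, stood at -0.02 (-0.12 to 0.08).

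Genes of amino acid and unfolded protein stress had 0 of 27 members higher and 2 lower after BS, with a median log2 FC of -0.05. The chicken medians lay below 0 in 6 of 6 chickens, from -0.13 in chicken 1 to -0.02 in chicken 3, with 16 to 19 of 27 members below 0. Over all genes averaging at least 10 counts, 47.7% to 51.4% were higher after BS in single chickens. The 2 members with an unadjusted p under 0.05 were HSP90B1, the HSP90 of the endoplasmic reticulum, at -0.11 (-0.21 to -0.01), and VLDLR, a lipoprotein receptor, at -0.32 (-0.64 to -0.01). The transcription factor ATF4, the most counted member, had a log2 FC of -0.04 (-0.14 to 0.05). Of 37 genes of lipid handling 3 were lower, among them the sterol synthesis enzyme CYP51A1 (-0.16, -0.28 to -0.04) and CPT1A (-0.09), which takes fatty acids into mitochondria. Of 46 proliferation genes 1 was higher, the cyclin CCNE2 at 0.55 (0.11 to 0.98) in 6 of 6 chickens, and 2 lower. Of the 46, 9 had a log2 FC above 0, against 48.5% of all genes averaging at least 10 counts, with a list median of -0.08. The chicken medians lay below 0 in 5 of 6 chickens, and in chicken 4 the median was 0.07 with 19 of 46 lower. Members of 1 list are not independent of each other.

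The iron, redox and metal list held 4 members higher and 1 lower of 38. TFRC, the transferrin receptor, had 526 to 1380 normalized counts (median 699) after BS, 558 to 1666 (median 798) after BV and 572 to 1470 (median 903) in the control, and its log2 FC was -0.21 (-0.34 to -0.07), lower in 6 of 6 chickens. The iron transporter SLC11A2 stood at 0.14 (0.02 to 0.25), its phagosomal relative SLC11A1 at 0.67 (0.04 to 1.30), the quinone reductase NQO2 at 0.15 (0.02 to 0.28) and the sulfiredoxin SRXN1 at 0.33 (0.04 to 0.63). FTH1, the heavy chain of ferritin, had a log2 FC of -0.06 (-0.24 to 0.11).

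Where counts were high, the strains agreed within narrow bounds. Of 65 ribosomal protein genes none had an unadjusted p under 0.05, and 63 of the 63 averaging at least 10 counts had intervals within a 1.5-fold difference. Of 29 genes of glycolysis and hypoxia none had an unadjusted p under 0.05, and 25 of 26 had intervals within a 1.5-fold difference. The share within this difference was 79.5% over all genes averaging at least 10 counts, and 99.1% to 99.7% at 300 counts or more. These counts are thus not particular to the ribosomal or glycolysis genes.

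**Figure D4:**
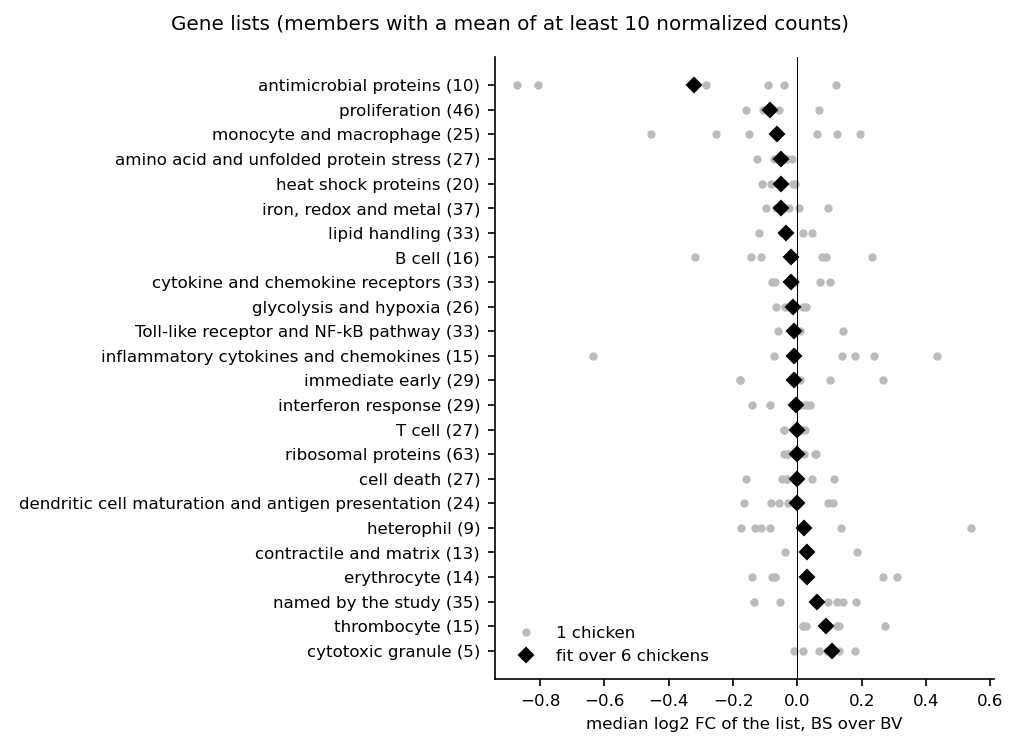
Median log2 FC of BS over BV of the 24 gene lists with 5 or more members shown (black diamonds, fit over 6 chickens, number of members in brackets) and the median difference in each chicken (grey points), for members averaging at least 10 normalized counts. The heat shock and the amino acid and unfolded protein lists have every grey point below 0, some of them barely, and their medians are only -0.05. The antimicrobial list has the lowest median (-0.32) with grey points on either side of 0.

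The gene with the lowest p was SLC38A2, a transporter of neutral amino acids. It had 3157 to 4064 normalized counts (median 3661) after BS, 3603 to 4985 (median 4244) after BV and 3265 to 5080 (median 4302) in the control. The value after BS was below that after BV in 6 of 6 chickens, and the groups overlapped. The log2 FC was -0.21 (SE 0.05, 95% interval -0.30 to -0.11) at an unadjusted p of 0.000204 and an adjusted p of 0.958.

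Among the 10 genes of lowest p that were lower after BS in every chicken were PLAC8, a small cysteine-rich protein of leukocytes, at -0.19 (-0.28 to -0.09), the RNA helicase DDX5 at -0.11 (-0.18 to -0.05) and the spectrin SPTAN1 at -0.11 (-0.18 to -0.04). PNAT10, an arylamine acetyltransferase, stood at -0.32 (-0.49 to -0.16), from 368 to 647 normalized counts after BS and 408 to 855 after BV. Over all genes averaging at least 10 counts, 202 (1.55%) were lower after BS in 6 of 6 chickens and 185 (1.42%) higher.

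Among the 10 of lowest p that were higher after BS in every chicken, MAP1A, a microtubule-associated protein, had 997 to 2516 normalized counts (median 1783) after BS and 732 to 2186 (median 1565) after BV, with a log2 FC of 0.21 (0.09 to 0.32). The others with a symbol were counted less: the microRNA gene gga-mir-6659 stood at 0.79 (0.31 to 1.27), DPYSL5, a protein of neuronal growth cones, stood at 0.86 (0.34 to 1.38), KPNA7, an importin, at 1.34 (0.43 to 2.24), KLHDC8B, a kelch protein, at 0.71 (0.23 to 1.18), and the exonuclease ERI3 at 0.24 (0.09 to 0.40). KPNA7 had 9.37 to 42.2 normalized counts (median 17.0) after BS, 0 to 31.1 (median 3.75) after BV and 2.91 to 50.1 (median 8.76) in the control. In chicken 5 it was 36.9 after BS and 0 after BV. The log2 FC of DPYSL5 over control was -0.05 for BS and -0.90 for BV (edgeR adjusted p = 0.044 for BV). In chicken 2 DPYSL5 had 30.3 normalized counts after BS and 30.2 after BV.

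In only 2 of 12997 genes (0.0154%) did the 6 libraries of one strain all lie above the 6 of the other. ENSGALG00000017334, which has no symbol in the files, had 49.9 to 105 normalized counts (median 54.8) after BS, 26.3 to 43.8 (median 33.3) after BV and 18.2 to 66.1 (median 43.6) in the control. Its log2 FC of BS over BV was 0.86 (95% interval 0.40 to 1.32), with 0.48 over control for BS and -0.38 for BV. NAA60, an acetyltransferase of the Golgi that was chosen for naming after its values were seen, had 80.7 to 145 normalized counts (median 123) after BS and 145 to 165 (median 152) after BV, with a log2 FC of -0.41 (-0.70 to -0.13). The control libraries of NAA60 ranged from 102 to 164 and spanned both groups.

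**Figure D5:**
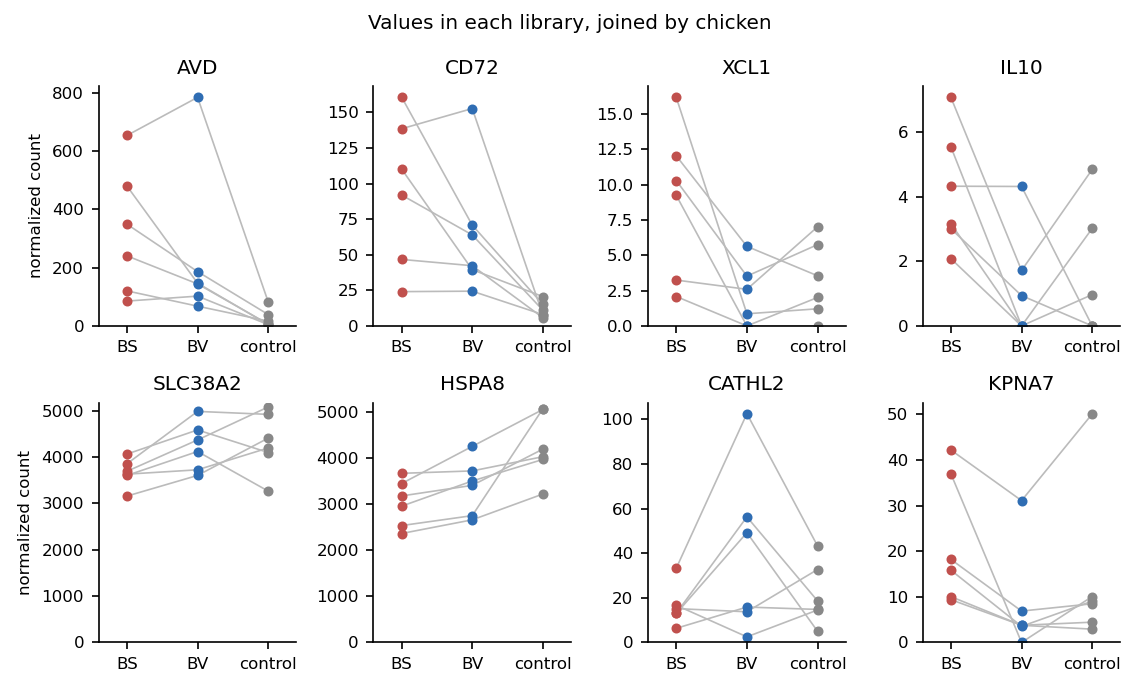
Normalized counts of 8 genes in each BS, BV and control library, with the 3 libraries of a chicken joined by a line and axes that start at 0. AVD and CD72 lie above control with both strains and cross between BS and BV, SLC38A2 and HSPA8 are lower after BS in every chicken by small amounts, and XCL1 and IL10 rest on a few reads.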

How the data were processed

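Duplicate cultures were pooled by the authors before paired-end sequencing (100 bases) of stranded libraries from total RNA, and the reads were aligned to GRCg6a with STAR 2.7.3. Neither the counter nor the annotation release is stated in the sources read. One deposited table holds read counts per gene (23910 genes), the other the authors' normalized signal, the count divided by a DESeq2 size factor, for genes with at least 2 reads over 24 libraries.

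The counts of 19673 such genes read after BS or BV were tested with edgeR 4.0.16 in R 4.3.3 (quasi-likelihood test, robust, TMM, chicken as a block, Benjamini-Hochberg adjustment). Intervals are 95% and use the standard error and degrees of freedom of the fit. Contrasts with the control came from a fit of 18 libraries. Single genes were tested on normalized counts by an exact paired permutation test (two-sided, over sign changes). The tests were checked on simulated counts. DESeq2 1.42.0 and limma 3.58.1 served as alternatives, besides other scalings, filters and leaving out each chicken.

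Same-numbered libraries come from one chicken according to the paper. Their deviations from the group means correlated at 0.489 to 0.896 between BS and BV, against -0.684 to 0.576 for different numbers.

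Named genes were the 10 of lowest p in each direction averaging at least 10 counts and the same direction in 6 of 6 chickens, the 12 largest responses to both strains, genes the study names and members of 25 lists with an unadjusted p under 0.05, from which the text gives a part. List members with the most counts and responding genes past the 12 largest were added. Members and lists were chosen with earlier results of these data known. Unnamed gene IDs could not be given symbols, and no sequences are printed. Intervals rest on a variance of each gene that is partly borrowed from other genes. For variable genes they can be narrower than the differences of the 6 chickens alone would give. IL17C had a half-width of 1.04, with an SD of 2.68 for the chicken differences in log2(normalized count + 1). Some members of the lists are counted but not reported here by name.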

Additional observations from a re-analysis of the deposited data

Results flagged for a closer look

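In a group of 6 libraries, a value was singled out where its gap to the nearest of the others took up an unusually large part of the range of the group by Dixon's criterion. Of 135 groups examined 21 were singled out. By chance the criterion singles out about 1 in 20 groups only where the values follow a normal distribution. Here it was applied mostly to normalized counts without a log scale, and most values singled out were the highest of their group. The chance rate for such counts was not determined, so that the 21 cannot be read as an excess. The groups share chickens and are not independent.

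Chicken 1 gave the highest of the 6 BV values in 7 genes that the strains raised against control, with 785 normalized counts in AVD, 80.1 in IL17C, 153 in CD72, 151 in IL1B, 317 in CD83, 45 in CSF3 and 589 in CCL5. The next highest BV values were 187 in AVD, 24.2 in IL17C, 70.8 in CD72, 52.7 in IL1B, 123 in CD83, 12.1 in CSF3 and 250 in CCL5. Chicken 1 was also the highest of the BS libraries in AVD, IL17C, IL1B, CD83 and CCL5, without being singled out there. Its BV value was the highest in TAP1 too (1898, next 1345). In IFIT5 the BS value of chicken 1 was 1382, above 502 in the next.

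Chicken 5 stood apart in its BS library and its distance between strains. It had 14539 genes detected after BS, against 16111 in the next lowest BS library, and a distance of 0.745 between BS and BV, against 0.459 in the next highest chicken. Its BS values were the highest in ENSGALG00000017334 (105 normalized counts, next 69.2) and IL6 (12.9, next 1.08) and the lowest in CPT1A (7438, next 8152). Its BV value was the highest in DPYSL5 (63.6, next 30.2).

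The remaining values came from other chickens. Chicken 2 was highest after BS in CYP51A1 (1252, next 1076) and highest after BV in KPNA7 (31.1, next 6.87). Chicken 3 was highest after BV in MLKL (42.9, next 18.5) and lowest after BV in HSPD1 (887, next 1059). Chicken 6 was highest after BS in CD28 (6931, next 5238), and its single IL6 read gave the only BV value above 0 in that gene (0.938).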

How the results depend on the processing

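No gene had an adjusted p under 0.05 between BS and BV without the replicate block, with the control libraries in the edgeR fit, in DESeq2 or limma-voom, under the other scalings and filters, or without any one chicken (lowest adjusted p 0.0602, without chicken 2). The exception was DESeq2 with the block and the control libraries in the same fit, an alternative chosen after seeing the data, with 12 genes at an adjusted p under 0.05 and 12 with an absolute log2 FC above 1.5 as well. The 271 genes chosen by the pathway rule (unadjusted p under 0.05, log2 FC beyond 0.5 in either direction) became 116 in DESeq2, 101 in DESeq2 with no replicate block, 499 in limma-voom and 176 with filterByExpr, and 255 to 296 when each chicken was left out. The 816 genes at an unadjusted p under 0.05 became 206 with no replicate block, 457 in DESeq2, 128 in DESeq2 with no replicate block and 576 to 1478 when each chicken was left out, the highest without chicken 2. Scaled by library size, 797 genes had such a p in a fit of its own, 540 higher and 257 lower after BS. Size factors by relative log expression gave 804, with 443 higher and 361 lower. The median half-width was 0.34 on the log2 scale with no replicate block, against 0.18 with it. The 27 responding genes became 0 with no replicate block and 16 to 34 when each chicken was left out, the fewest without chicken 1. Of 1817 values of 115 genes under these alternatives, 1786 moved by less than 1 SD between chickens and 31 by more, and 69 in 26 genes changed sign, none of them called. Leaving out a chicken or rescaling can hardly move a mean of the chicken differences by as much as 1 SD. The count of 1786 was thus largely set by this yardstick and does not measure stability. For the changes under these alternatives the cause was not tested. Genes averaging under 10 counts had a median half-width of 3.57 on the log2 scale.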
